A study of Rattus norvegicus with 6 samples.

Results

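The miR-17-92 cluster is a set of miRNA hairpins cut from the single long primary transcript of Mir17hg. Members were 10 mature arms fixed by name, out of 753 miRNAs listed: rno-miR-17-5p, rno-miR-17-1-3p, rno-miR-18a-5p, rno-miR-18a-3p, rno-miR-19a-3p, rno-miR-20a-5p, rno-miR-20a-3p, rno-miR-19b-3p, rno-miR-92a-1-5p and rno-miR-92a-3p, where rno marks rat and is left off from here on. The passengers miR-19a-5p and miR-19b-1-5p of the same cluster are also in the count table, near 0, and were not among the names. All 10 members had counts, and 8 passed the filter on low counts and were tested. On day 14, lumbar cord small RNA was sequenced in 3 bone cancer pain (BCP) rats, whose left tibia had received living Walker 256 breast carcinoma cells, and in 3 sham rats, whose left tibia had received heat-killed cells of the same line. Each library is 1 rat. The labels give the strain as Wistar and the study's methods as Sprague Dawley, females by the methods. The labels describe the tissue as the ipsilateral side of the lumbar enlargement without meninges. Such tissue mixes neurons, glia and vessels, and in it fewer cells of a type and less RNA per cell cannot be told apart.

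Dicer cuts each hairpin into a 5p and a 3p arm. Usually a single arm, the guide, stays in the Argonaute protein and directs it to mRNAs that match bases 2 to 8 of the miRNA, its seed, while the other arm, the passenger, is mostly degraded. The cluster is known for driving proliferation and survival of lymphocytes and tumor cells, for its activation by MYC, and in the nervous system for its high level in neural progenitors and its decline as cells mature. Its usual guides are miR-17-5p, miR-18a-5p, miR-19a-3p, miR-20a-5p, miR-19b-3p and miR-92a-3p.

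In the RefSeq annotation of the GRCr8 assembly the 6 hairpins lie on chromosome 15 in the order Mir17, Mir18a, Mir19a, Mir20a, Mir19b1 and Mir92a1, within 785 bases. RefSeq gave a mature sequence for all 10 members. The sequences of the arms on which the comparisons turn are shown 5′ to 3′, with the seed in capitals, because the seed decides which arms can bind the same sites.
miR-17-5p: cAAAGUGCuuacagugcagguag
miR-20a-5p: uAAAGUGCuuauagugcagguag
miR-18a-5p: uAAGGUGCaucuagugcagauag
miR-19a-3p: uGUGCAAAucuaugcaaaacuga
miR-19b-3p: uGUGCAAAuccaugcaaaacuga
miR-92a-3p: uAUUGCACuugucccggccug
miR-17-1-3p: aCUGCAGUgaaggcacuugugg
miR-18a-3p: aCUGCCCUaagugcuccuucu
miR-92a-1-5p: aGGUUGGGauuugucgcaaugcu

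The 10 arms carried 8 distinct seeds. miR-17-5p and miR-20a-5p shared AAAGUGC and differed at 2 of 23 positions (C1U and C12U, with miR-17-5p first and positions counted from the 5′ end). miR-18a-5p had the related seed AAGGUGC and differed from miR-20a-5p at 4 positions, among them A4G inside the seed. miR-19a-3p and miR-19b-3p shared GUGCAAA and differed at a single position, U11C. How the authors assigned reads that match several miRNAs is not given in the sources used here, so values of such close relatives are uncertain to that extent. RefSeq lists 3 of the members, miR-17-5p, miR-19b-3p and miR-92a-3p, under 2 precursors each, since the paralogous miR-106a-363 cluster on chromosome X encodes the same mature sequences (Mir106a, Mir19b2 and Mir92a2). Their counts cannot be told apart by origin. The other 7 arms have 1 precursor each.

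The values are the authors' raw read counts, with library totals from 13464349 to 23770677, and levels are given as CPM, counts scaled to a library of 1000000 reads after TMM normalization. A floor of 3 counts, below which a level is read as not distinct from 0, was between 0.127 and 0.221 CPM. The 7 markers of central nervous tissue fixed as a list (such as miR-124-3p, miR-9a-5p and miR-219a-2-3p) all had counts, summed to between 142767 and 153438 CPM in the BCP group and between 138979 and 152661 CPM in the sham group, and none of the 7 passed the test. Most of that sum was miR-9a-5p and miR-128-3p. Of the others, miR-9a-3p ranged from 1396 to 3863 CPM between rats. miR-138-5p lay wholly lower in the BCP rats (log2 fold change -0.12, edgeR adjusted p = 0.662), as did 5.23% of all tested miRNAs. BCP rat 1 had the lowest value of its group in 6 of the 8 tested members.

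The members covered a wide range of levels. miR-92a-3p was the most abundant arm, with 1857, 1792 and 1632 CPM in BCP rats 1, 2 and 3 and 1398, 1690 and 1021 CPM in sham rats 1, 2 and 3, and it ranked 63 among all listed miRNAs by its mean. miR-17-5p followed with 183, 245 and 236 CPM for BCP and 115, 103 and 129 CPM for sham rats. Next came miR-20a-5p, with 144, 206 and 220 CPM for BCP and 96.6, 79.2 and 128.8 CPM for sham rats. miR-92a-3p lay above every other arm in all 6 libraries, whereas miR-17-5p exceeded miR-20a-5p in 5 of 6 and their ranges overlapped. All of the remaining 7 arms were far lower, at means over the 6 libraries from 0.189 CPM for miR-20a-3p to 4.83 CPM for miR-18a-3p, and each of them overlapped in range with its neighbour in the order of levels.

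**Figure D1:**
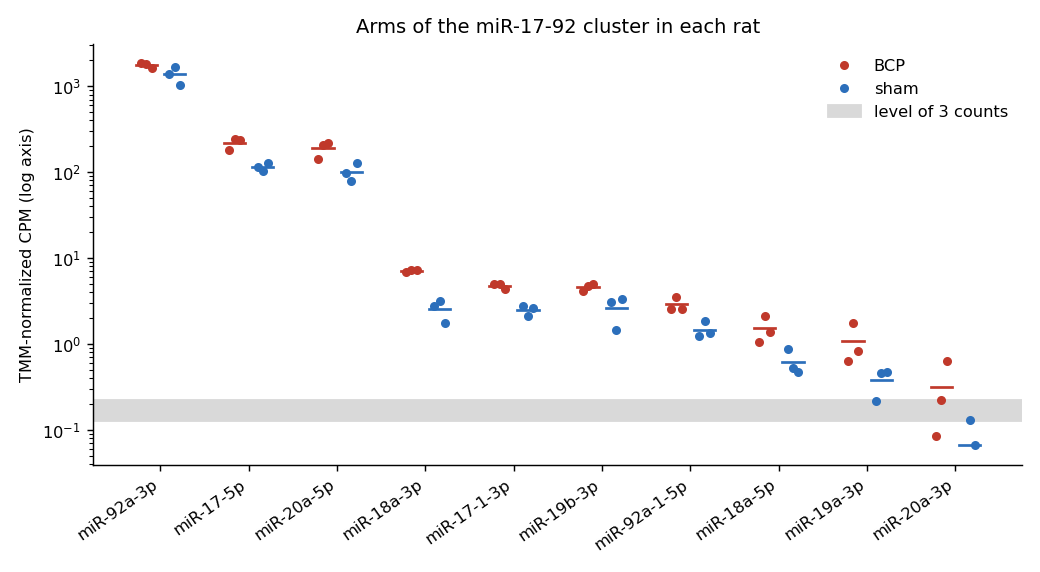
TMM-normalized CPM of the 10 arms in each rat (points, log axis; bars are group means, the grey band marks the level of 3 counts). The 3 BCP points lie above the 3 sham points for 8 of the arms and overlap with them for miR-92a-3p and miR-20a-3p, and the sham library with 0 counts of the latter is not drawn.

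The guides of the miR-19 hairpins were among the low arms of this table. miR-19b-3p had 97, 64 and 79 counts in BCP rats 1 to 3 and 43, 22 and 50 in sham rats 1 to 3, and miR-19a-3p had 15, 24 and 13 against 3, 7 and 7. miR-19 arms are the members best known for oncogenic activity in lymphocytes. Of the members, 6 are 23 nucleotides long in RefSeq (both miR-19 guides among them) and 4 are shorter, while the study's methods describe known miRNAs as identified by a length of 21 to 22 nucleotides. Whether that step lowered the counts of the longer arms was not tested, and levels between arms are to be read with it. Comparisons of the same arm between rats use the same step in every library.

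Between the groups, miR-18a-3p, miR-17-5p and miR-17-1-3p rose in the BCP rats, by 2.78-fold, 1.91-fold and 1.93-fold, and no member fell. These 3 of the 8 tested members (37.5%) passed an adjusted p below 0.05 and an absolute log2 fold change above 0.8 in edgeR's quasi-likelihood test with Benjamini-Hochberg adjustment over the 459 miRNAs tested. Of all tested miRNAs 3.49% were called higher and 0% lower. Of the 8 tested members, 7 had a log2 fold change above 0.8, against 5.23% of all tested miRNAs. The BCP values of 7 members lay wholly above the sham values, against 13.3% of all tested miRNAs, and no member lay wholly below, against 5.23%. All 8 had a log2 fold change above 0, against 49% of all tested miRNAs. An unadjusted p below 0.05 was reached by 7 members in the higher direction, against 10.7%, and by 0 in the lower direction, against 2.4%. The median log2 fold change was 0.94 over the tested members and -0.0034 over all tested miRNAs. miR-18a-5p passed the filter only through its level in the BCP group, so its difference was partly required by the filter, whereas the other 7 tested members exceeded the filter's level in all 3 sham rats as well.

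miR-18a-3p, the arm opposite the usual guide of its hairpin, changed the most of the tested members. Its counts were 161, 98 and 115 in BCP rats 1 to 3 and 38, 48 and 26 in sham rats 1 to 3, which was 7.11 ± 0.242 CPM (SD, n = 3 rats) and 2.55 ± 0.729 CPM (SD, n = 3 rats). The lowest BCP rat, at 6.83 CPM, lay above the highest sham rat, at 3.16 CPM. It gave a log2 fold change ± SE of 1.48 ± 0.228 (edgeR adjusted p = 0.00998).

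miR-17-5p is a guide whose targets in other tissues include the cell cycle inhibitor Cdkn1a and the transcription factor E2f1. It had 4306, 3331 and 3734 counts in BCP rats 1 to 3 and 1591, 1573 and 1924 in sham rats 1 to 3, or 221 ± 33.9 CPM against 116 ± 12.6 CPM (SD, n = 3 rats each). The groups were apart, with BCP rat 1 the lowest of its group. It gave a log2 fold change ± SE of 0.94 ± 0.152 (edgeR adjusted p = 0.0128). The passenger of the same hairpin, miR-17-1-3p, had 118, 68 and 69 counts in BCP rats 1 to 3 and 38, 32 and 39 in sham rats 1 to 3. Its level was 4.79 ± 0.371 CPM in the BCP group and 2.48 ± 0.335 CPM in the sham group (SD, n = 3 rats each), also without overlap, and it gave a log2 fold change ± SE of 0.95 ± 0.192 (edgeR adjusted p = 0.0327).

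These calls rested on few rats. The number of members called was 0 without BCP rat 2, 0 without sham rat 1, 1 without BCP rat 3, and between 2 and 3 when any other rat was left out. The log2 fold changes themselves stayed between 1.23 and 1.66 for miR-18a-3p, between 0.86 and 1.04 for miR-17-5p and between 0.84 and 1.00 for miR-17-1-3p. miR-17-1-3p missed the threshold whichever rat was left out, with an edgeR adjusted p from 0.0535 to 0.151. It also missed it with all rats and the replicate number as a block (edgeR adjusted p = 0.0635).

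Another 4 arms had log2 fold changes above 0.8 and groups that did not overlap, but adjusted p above 0.05 in edgeR's quasi-likelihood test. miR-20a-5p, the close relative of miR-17-5p, had 3397, 2798 and 3481 counts in BCP rats 1 to 3 and 1340, 1204 and 1926 in sham rats 1 to 3, with a log2 fold change ± SE of 0.90 ± 0.222 (edgeR adjusted p = 0.0683). Sham rat 3 was the highest of its group at 128.8 CPM and BCP rat 1 the lowest of its group at 144 CPM, and without either of them the edgeR adjusted p was 0.0411 or 0.0302, but it ranged up to 0.300 when another rat was left out. DESeq2 gave an adjusted p of 0.00717 for miR-20a-5p, whereas edgeR with another filter or normalization gave 0.107 to 0.127. With the replicate number as a block, edgeR gave an adjusted p of 0.00974, although these numbers do not pair the rats. miR-92a-1-5p, the passenger of the last hairpin, had 61, 48 and 41 counts in BCP rats 1 to 3 and 17, 28 and 20 in sham rats 1 to 3, a log2 fold change ± SE of 0.97 ± 0.256 (edgeR adjusted p = 0.0891). miR-18a-5p had 25, 29 and 22 counts against 12, 8 and 7, a log2 fold change ± SE of 1.27 ± 0.385 (edgeR adjusted p = 0.141). miR-19b-3p, with the counts given above, had the smallest log2 fold change of these, 0.81 ± 0.301 (edgeR adjusted p = 0.275), and sham rat 2 was the low point of its group at 1.45 CPM, without which the log2 fold change was 0.50.

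miR-92a-3p had a smaller fold change than the other tested arms, with 1760 ± 116 CPM in the BCP group and 1370 ± 335 CPM in the sham group (SD, n = 3 rats each). Sham rat 2, at 1690 CPM, lay above BCP rat 3, at 1632 CPM, so the groups overlapped. The test gave a log2 fold change ± SE of 0.36 ± 0.175 (edgeR adjusted p = 0.442), which does not show that the level was the same. It was 0.16 without sham rat 3 and 0.54 without sham rat 2. The remaining pair of arms was too low to be tested. Every BCP value of miR-19a-3p, from 0.636 to 1.77 CPM, lay above every sham value, from 0.216 to 0.468 CPM, and a fit without the filter gave a log2 fold change ± SE of 1.40 ± 0.539 (edgeR adjusted p = 0.337). miR-20a-3p had 2, 3 and 10 counts in BCP rats 1 to 3 and 0, 2 and 1 in sham rats 1 to 3, at or below the level of 3 counts in 5 of 6 libraries, and no difference was detectable at this depth.

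**Figure D2:**
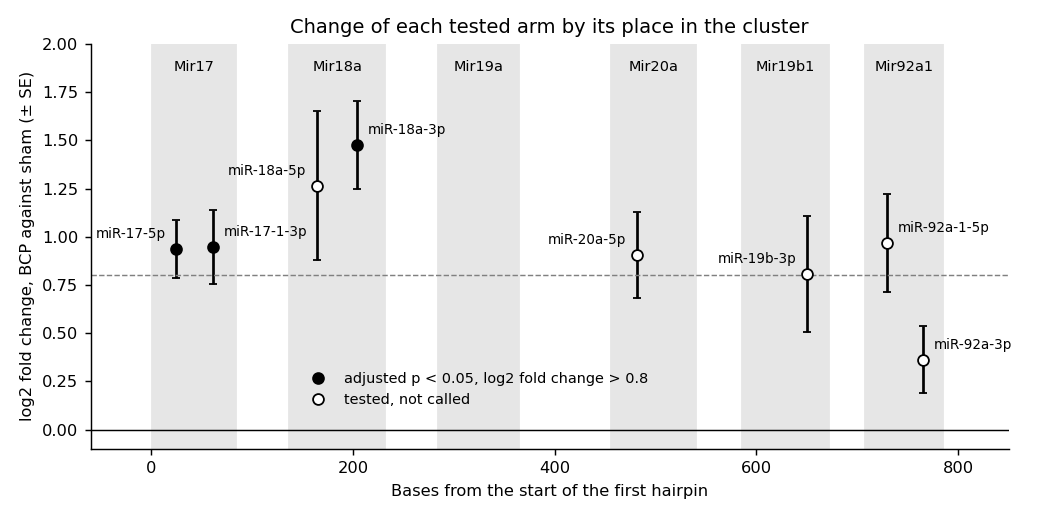
Log2 fold change between BCP and sham rats (points, ± standard error from edgeR) of the 8 tested arms against their place in the cluster, in bases from the start of the first hairpin (grey bands are hairpins, the dashed line marks 0.8). 7 arms lie between 0.81 and 1.48, and miR-92a-3p at the end of the cluster lies at 0.36.

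Both arms of a hairpin are cut from the same RNA, so the ratio of 5p to 3p counts within a library needs no normalization between libraries. This was compared for the 4 hairpins with both arms among the members, as log2((5p + 0.5)/(3p + 0.5)). With 3 rats against 3 the two-sided exact permutation test cannot give a p below 0.1, and p-values were adjusted over the 4 hairpins.

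For the miR-17-1 hairpin the ratio was 5.18, 5.60 and 5.75 on the log2 scale for BCP and 5.37, 5.60 and 5.61 for sham rats, a difference in means of -0.013 (exact permutation p = 0.9, adjusted 0.9). The 5p count includes any reads from the X-linked copy. Guide and passenger of this hairpin thus differed between the groups by nearly the same factor, and the passenger held between 1.81% (95% Wilson interval 1.44 to 2.29%) and 2.67% (2.23 to 3.18%) of both arms' counts. The intervals cover counting error only, because the sources used here describe no molecular identifiers.

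The miR-18a hairpin was dominated by the 3p arm in all 6 libraries. The 5p arm, its usual guide, made up 13.4% of both arms' counts in BCP rat 1 (95% Wilson interval 9.27 to 19.1%), 22.8% in BCP rat 2 (16.4 to 30.9%) and 16.1% in BCP rat 3 (10.9 to 23.1%). In the sham rats it made up 24.0% (14.3 to 37.4%), 14.3% (7.42 to 25.7%) and 21.2% (10.7 to 37.8%). All intervals overlap between the groups, and the log2 ratio differed by -0.27 (exact permutation p = 0.6, adjusted 0.8), by -0.53 to -0.064 when a rat was left out, and by -0.49 with a pseudocount of 5. miR-18a-5p is 23 and miR-18a-3p 21 nucleotides long, so the length step named above bears on this share, and its part in it was not tested.

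For the miR-20a hairpin the passenger had at most 10 counts in any library, the log2 ratio ranged from 8.37 to 11.4, and the difference of -0.73 between the groups (exact permutation p = 0.5, adjusted 0.8) turned to 0.47 with a pseudocount of 5, so no direction can be read from it. For the miR-92a-1 hairpin the 5p arm held 0.139%, 0.197% and 0.159% of both arms' counts for BCP and 0.0876%, 0.109% and 0.131% for sham rats. The 95% Wilson intervals ran from 0.108 to 0.261% across the BCP rats and from 0.0547 to 0.202% across the sham rats. Each BCP rat was above each sham rat, with log2 ratios of -9.48, -8.97 and -9.28 against -10.1, -9.82 and -9.54, a difference of 0.58 (exact permutation p = 0.1, the smallest possible, adjusted 0.4). With a pseudocount of 5 it was 0.43 and sham rat 3 lay above BCP rat 1 (exact permutation p = 0.2). Here the 3p count includes any reads from Mir92a2, whose own 5p arm, miR-92a-2-5p, was listed at 0 in every library.

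**Figure D3:**
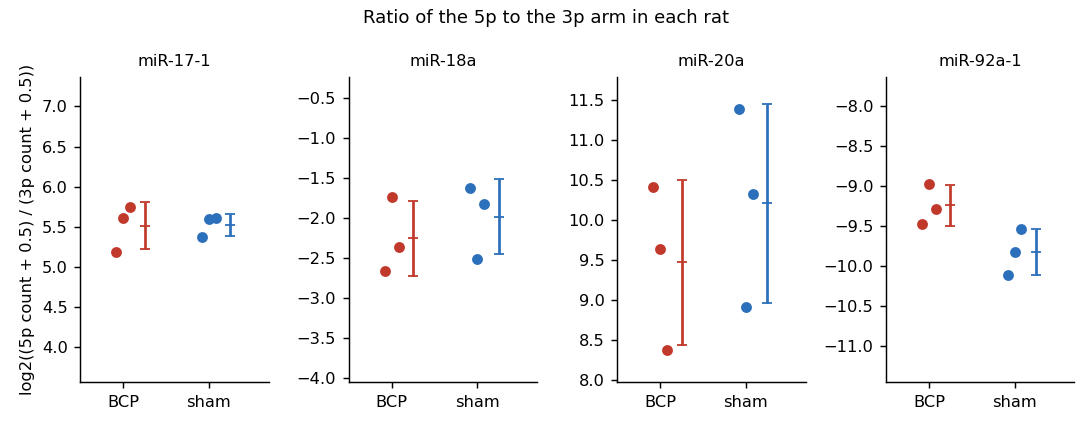
Log2 ratio of 5p to 3p counts (with 0.5 added to each) in each rat for the 4 hairpins (points; bars are group mean ± SD, n = 3 rats; every panel spans the same number of log2 units). The groups overlap for miR-17-1, miR-18a and miR-20a, and the BCP rats lie above the sham rats for miR-92a-1.

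Arms of different hairpins were set against miR-92a-3p of the same library, which compares products of the primary transcript with each other, apart from any reads of the X-linked copies. Leaving aside miR-20a-3p, the other 8 arms had a higher mean log2 ratio to miR-92a-3p in the BCP group, by 0.49 to 1.12. The smallest of these differences, that of miR-19b-3p, was -0.051 without sham rat 2 and 0.91 without sham rat 3. For miR-20a-3p the difference was 1.25 and became 0.049 with a pseudocount of 5, so no direction can be read from it, while that of miR-19a-3p went from 0.95 to 0.44 and that of miR-18a-5p from 0.85 to 0.51. The groups did not overlap for 3 arms, of which miR-18a-3p alone stayed apart with a pseudocount of 5 (exact permutation p = 0.3 for miR-17-1-3p and 0.2 for miR-92a-1-5p). miR-18a-3p was at -8.08, -7.95 and -7.80 for BCP and -8.98, -9.05 and -9.17 for sham rats, a difference of 1.12. For miR-17-1-3p the difference was 0.55 and for miR-92a-1-5p 0.58. Each of these 3 had an exact permutation p of 0.1, the smallest the design allows, and 0.3 after adjustment over the 9 ratios. For miR-17-5p (0.54) and miR-20a-5p (0.52) sham rat 3 overlapped with the BCP rats (exact permutation p = 0.2 and 0.3). Without sham rat 2 the difference was 0.27 for miR-17-1-3p, 0.30 for miR-17-5p and 0.19 for miR-20a-5p, and without sham rat 3 it was 0.79, 0.82 and 0.90, whereas for miR-18a-3p it stayed between 1.05 and 1.19 whichever rat was left out. Since all 9 ratios share the same denominator, they are not independent of each other.

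**Figure D4:**
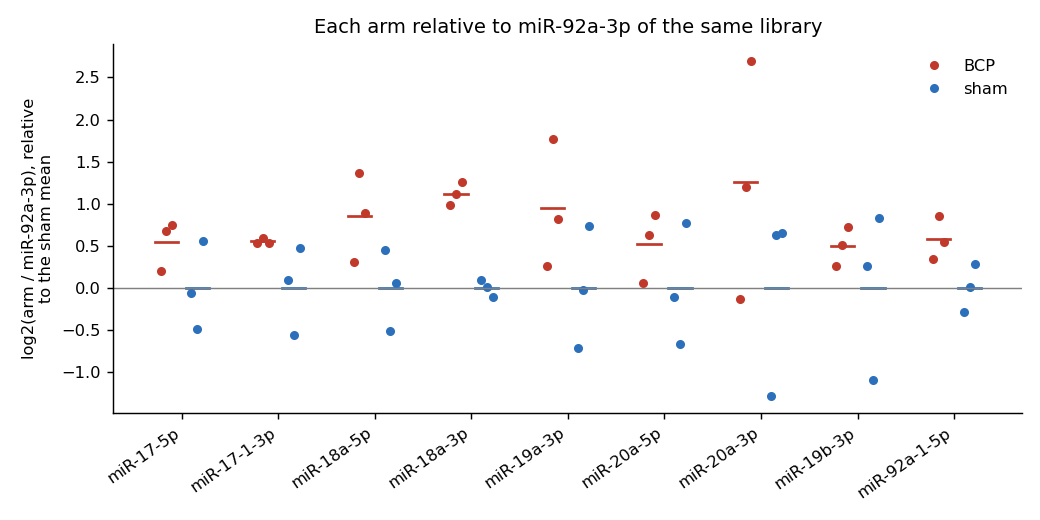
Log2 ratio of each arm to miR-92a-3p of the same library, minus the sham mean (points are rats, bars group means). The groups are apart for miR-17-1-3p, miR-18a-3p and miR-92a-1-5p, and the difference of 1.25 for miR-20a-3p is 0.049 with a pseudocount of 5 in place of 0.5.

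Summed over the 10 arms, the cluster was at 2204, 2268 and 2110 CPM for BCP and 1620, 1882 and 1288 CPM for sham rats. Every BCP rat was above every sham rat, with a mean difference of 0.47 on the log2 scale (exact permutation p = 0.1). miR-92a-3p made up 80.2% ± 3.61 of this sum in the BCP group and 85.1% ± 5.37 in the sham group (SD, n = 3 rats each), and so set most of it. Over the 7 arms that a single precursor encodes, the sum was 160, 226 and 237 CPM for BCP and 104, 87.4 and 135 CPM for sham rats, a log2 difference of 0.93 (exact permutation p = 0.1). That sum was mostly miR-20a-5p, which supplied 144, 206 and 220 CPM of it in the BCP group and 96.6, 79.2 and 128.8 CPM in the sham group. Without miR-92a-3p, the tested arm with the smallest log2 fold change, the sum of the 9 other arms differed by 0.93. Leaving that arm out raises the difference by construction. By group means, miR-17-5p and miR-20a-5p supplied 411 of 434 CPM of this sum in the BCP group and 217 of 227 CPM in the sham group. It is therefore not separate support from 9 arms.

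By seed, the members with AAAGUGC (miR-17-5p and miR-20a-5p) summed to 411 ± 73.4 CPM in the BCP group and 217 ± 37.8 CPM in the sham group (SD, n = 3 rats each), a log2 difference of 0.92. Those with GUGCAAA (miR-19a-3p and miR-19b-3p) summed to 5.68 ± 0.873 CPM and 3.01 ± 0.988 CPM, a log2 difference of 0.96. For both sums the groups did not overlap (exact permutation p = 0.1, adjusted 0.117 over the 7 seeds with counts in every library).

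Several miRNAs from other transcripts carry the same seeds, and can pair with the same target sites. Some of them are shown for comparison with the members printed above.
miR-93-5p: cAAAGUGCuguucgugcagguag
miR-20b-5p: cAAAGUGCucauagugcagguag
miR-25-3p: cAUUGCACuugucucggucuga
miR-363-3p: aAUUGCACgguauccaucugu

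The table lists 5 miRNAs with the seed AAAGUGC. The most abundant was miR-93-5p of the miR-106b-25 cluster, which lies in an intron of the replication gene Mcm7, with 378, 372 and 344 CPM in the BCP rats against 335, 323 and 298 CPM in the sham rats, without overlap, and a log2 fold change ± SE of 0.19 ± 0.107 (edgeR adjusted p = 0.52). The members' share of all reads with this seed was 44.4%, 52.3% and 54.2% for BCP and 36.9%, 34.6% and 43.3% for sham rats, without overlap. Among the 5 miRNAs with AUUGCAC, miR-92b-3p and miR-25-3p had levels of the same order as miR-92a-3p. miR-92b-3p had a log2 fold change ± SE of -0.12 ± 0.171 (edgeR adjusted p = 0.812) and miR-25-3p of 0.24 ± 0.139 (edgeR adjusted p = 0.538). When a rat was left out, miR-25-3p ranged from 0.081 to 0.36 and miR-93-5p from 0.12 to 0.23. miR-92a-3p took 32.3%, 34.8% and 33.7% of the reads with this seed for BCP and 28.4%, 29.5% and 27.3% for sham rats, without overlap. The seed CUGCAGU is shared by miR-17-1-3p and miR-20b-3p. miR-17-1-3p took 92.9%, 93.2% and 85.2% of its reads for BCP and 95%, 88.9% and 86.7% for sham rats, with overlap. These shares were computed after the values of the members had been seen and are given with no test.

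**Figure D5:**
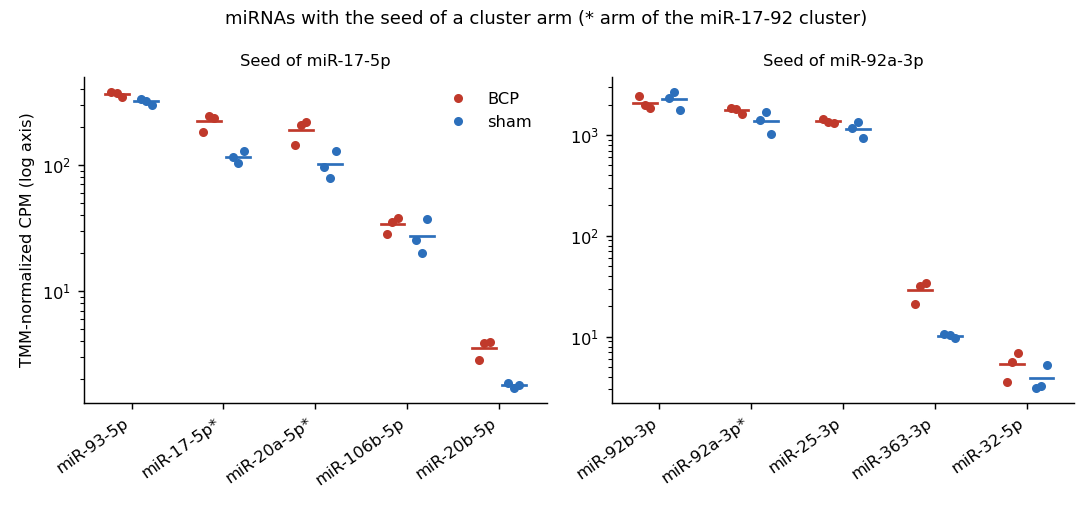
TMM-normalized CPM (log axis) in each rat of the miRNAs that share the seed of miR-17-5p (left) or miR-92a-3p (right); points are rats, bars group means, and stars mark arms of the miR-17-92 cluster. On the left miR-106b-5p alone overlaps between the groups, and on the right all but miR-363-3p do.

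Arms of both paralogous clusters were also measured. Of 9 names fixed for the miR-106a-363 cluster the table lists 7, of which 2 were tested and 1 rose. miR-363-3p, with the seed of miR-92a-3p, had 21.1, 31.6 and 34.3 CPM in the BCP rats against 10.5, 10.3 and 9.63 CPM in the sham rats, a log2 fold change ± SE of 1.51 ± 0.197 (edgeR adjusted p = 0.00412). miR-20b-5p, which differs from miR-17-5p at 2 positions (U10C and C12U, miR-17-5p first), had a log2 fold change ± SE of 0.98 ± 0.222 (edgeR adjusted p = 0.052), and without BCP rat 1 it was called as well, at 1.12 (edgeR adjusted p = 0.0366), while without any other rat it was not, with an edgeR adjusted p of up to 0.227. Of the arms that could mark this cluster's own copies of the shared members, miR-17-2-3p had 6, 11 and 8 counts in BCP rats 1 to 3 and 14, 4 and 2 in sham rats 1 to 3, and miR-19b-2-5p and miR-92a-2-5p were listed at 0 in every library. Of the 6 arms of the miR-106b-25 cluster all were tested and none passed in either direction, with log2 fold changes from -0.42 for miR-25-5p to 0.30 for miR-106b-5p, which ranged from -0.64 to -0.27 and from 0.11 to 0.54 when a rat was left out. The difference between the clusters was not tested. The passengers left out of the members' list were near 0, with at most 6 counts for miR-19b-1-5p and 0 for miR-19a-5p in any library.

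Markers of other cell types were read beside these results. Of 4 markers of white blood cells, miR-223-3p rose by 2.13 on the log2 scale (edgeR adjusted p = 0.019), miR-150-5p had a log2 fold change of -0.13 (edgeR adjusted p = 0.725), and miR-142-3p and miR-142-5p were listed at 0 in every library. Their sum ranged from 975 to 1283 CPM in the BCP group and from 1090 to 1379 CPM in the sham group. Nearly all of it was miR-150-5p, at a mean of 1131 CPM against 1241 CPM, so the sum does not show the rise of miR-223-3p. That arm ranged from 5.57 to 7.93 CPM in the BCP rats and from 0.658 to 2.31 CPM in the sham rats, without overlap. Of 4 markers of red blood cells, miR-451-5p, miR-144-3p and miR-144-5p were listed at 0 in every library, and miR-486 was not analysed here under that name. Whether the zeros of both blood lists come from how reads were selected and assigned was not tested, and they are not read as absence. Of 6 epithelial markers, chosen because the injected cells are a carcinoma, 4 were tested and 1, miR-200c-3p, rose by 1.63 on the log2 scale (edgeR adjusted p = 0.00556). The log2 fold change was 1.22 for miR-203a-3p (edgeR adjusted p = 0.0692), 0.50 for miR-200a-3p (edgeR adjusted p = 0.546) and -0.23 for miR-200b-3p (edgeR adjusted p = 0.777), and miR-141-3p and miR-429 had at most 7 counts in any library. The sum of the epithelial list ranged from 23.1 to 37.0 CPM in the BCP group and from 12.8 to 15.2 CPM in the sham group, so the groups did not overlap. Most of that sum was miR-203a-3p, at a mean of 16.6 CPM against 7.08 CPM, and miR-200c-3p, at 11.6 CPM against 3.73 CPM. The part of any of these cells in the members' differences was not tested.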

How the data were processed

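Small RNA libraries of 6 rats, 3 BCP and 3 sham, were sequenced on an Illumina NovaSeq instrument. Per the study's methods and processing notes, reads were trimmed with the FASTX Toolkit 0.0.13, clean reads of 18 to 40 nucleotides were mapped to Rnor_6.0 with Bowtie2 2.2.3, and known miRNAs were picked by their length (21 to 22 nucleotides) with miRBase 22.0. What the authors deposited is a table of raw, not normalized, counts for 753 mature miRNAs.

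Differences were tested with edgeR 4.0.16 (R 4.3.3): filterByExpr with a minimum count of 10, library sizes from the whole table, TMM normalization and a quasi-likelihood test, Benjamini-Hochberg adjusted over 459 miRNAs, called at an adjusted p below 0.05 and an absolute log2 fold change above 0.8, as in the study. Standard errors are the log2 fold change over the square root of F. Ratios used a pseudocount of 0.5 counts. Single values were compared with two-sided exact permutation tests. No libraries of a group agreed within sampling noise.

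The members and lists were chosen with earlier results of these data known. Named were the members, the other arms of their precursors, the paralogous clusters, the marker lists, miRNAs sharing a member's seed (added after seeing the data), and the 5 miRNAs nearest in pattern to the cluster sum. Alternatives were no filter, at least 10 counts in every library, total counts, RLE, DESeq2 1.42.0, a replicate block, a pseudocount of 5, arms of 1 precursor, and leaving out each rat. Sequences are from RefSeq (GRCr8), which had one for 688 of the 753 names. Its coordinates are not printed, because the reads were mapped to another assembly.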

Additional observations from a re-analysis of the deposited data

How the results depend on the processing

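The number of members called higher, 3, was 4 with DESeq2 and 3 under each other setting that kept all 6 rats, and ranged from 0 to 3 when a rat was left out. For the paralogous arms that range was 1 to 2, against 1. The count of members tested in a setting whose groups did not overlap was 7 of 8. With all rats it was 6 of 7 with at least 10 counts in every library, 8 of 10 without a filter, and 7 of 8 with total counts or RLE. Without a rat it ran from 7 of 8 (BCP rat 2 left out) to 9 of 9 (sham rat 2 left out). Leaving out a rat can part groups but hardly make them overlap, so this last range does not measure how firm the count is. The direction of all 8 tested members was kept under every setting run. Of their 47 values under settings with all 6 rats, 44 kept their side of 0.05 for the adjusted p, and of the 48 without a rat, 35 did. The log2 fold change of miR-106b-3p ranged from -0.19 to 0.084 without a rat.

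Replicate numbers are shared between the groups by name only. The deviations of same-numbered rats correlated at 0.11, -0.45 and 0.71, and BCP rat 1 correlated best with sham rat 2 (0.75), so the numbers do not pair the rats. BCP rat 1 and sham rat 3 correlated at -0.73, so rats of both groups shared deviations across the tested miRNAs. The part of these shared deviations in the members' values was not tested. With the replicate block 3 members were again called, miR-17-5p, miR-18a-3p and miR-20a-5p (edgeR adjusted p = 0.00974), while miR-17-1-3p missed the threshold (edgeR adjusted p = 0.0635).

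The arm ratio difference of miR-17-1 turned from -0.013 to 0.074 with a pseudocount of 5 and ranged from -0.13 to 0.15 without a rat, and that of miR-20a turned from -0.73 to 0.47 with a pseudocount of 5, where the passenger had fewer counts than were added in 5 of 6 libraries. The ratio of miR-19b-3p to miR-92a-3p ranged from -0.051 to 0.91 without a rat, the lowest without sham rat 2. Depth limits miR-20a-3p, miR-19a-3p and miR-18a-5p most.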

Other observations

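Among the tested miRNAs outside the cluster, the 5 whose log2 CPM, centred over the 6 libraries, lay nearest to that of the cluster sum were miR-15b-5p, miR-378a-5p, miR-339-5p, miR-25-3p and miR-532-3p. The root-mean-square difference from the cluster sum was 0.0855 log2 units for miR-15b-5p and between 0.104 and 0.118 for the others. Their log2 fold changes ranged from 0.24 for miR-25-3p to 0.49 for miR-15b-5p, and none passed the adjusted threshold of edgeR's quasi-likelihood test. The choice used all 6 libraries, so log2 fold changes near that of the sum follow from it. Since the sum is mostly miR-92a-3p, these are neighbours of that arm more than of the arms that rose. miR-15b belongs to the miR-15/16 family, which is known to restrain the cell cycle, and miR-25 is a paralog of miR-92a.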
